A study of Homo sapiens with 6 samples.

Results

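The genes described here carry the signal from foreign or misplaced nucleic acid to the interferon genes. They are the sensors CGAS, RIGI, IFIH1 and TLR3, the adaptors STING1, MAVS, TICAM1 and TRAF3, and the transcription factors IRF3 and IRF7. They were chosen by symbol, as every probe whose platform annotation names one of them, which gave 15 probes for 10 of the 20045 named genes on the array. RNA was measured on Illumina expression arrays in 3 samples given a compound labelled TBK1 inhibitor II and in 3 samples given vehicle only, each for 3 days. All 6 samples are labelled as HCC1954, a breast carcinoma line of the HER2-positive subtype. The labels state no dose and do not name the vehicle. Nor do they say that replicates were grown as separate cultures, so the spread behind each p-value may be technical only.

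In this pathway each sensor binds one kind of nucleic acid. The product of CGAS binds DNA in the cytosol and makes a cyclic dinucleotide that STING1 recognises, the helicases encoded by RIGI and IFIH1 bind double-stranded RNA in the cytosol and signal through MAVS on mitochondria, and TLR3 binds double-stranded RNA in endosomes and signals through TICAM1, also called TRIF. STING1, MAVS and TICAM1 each bring TBK1 to IRF3, with TRAF3 taking part, and TBK1 phosphorylates IRF3 and IRF7, which then enter the nucleus and switch on interferon genes. Several of the sensors, and IRF7, are themselves induced by interferon. An array of RNA levels measures neither phosphorylation nor the activity of any of these proteins, and in a bulk sample fewer cells with a transcript and less of it per cell cannot be told apart.

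The median signal intensity of the arrays ran from 98.5 to 138.1. Between 18325 and 20741 of 47321 probes were detected, which here means a detection p under 0.05 against the array's negative controls. Vehicle replicate 1 had the fewest detected probes and the lowest array weight estimated by limma (0.457, against 0.729 to 1.57 on the other arrays). Of 14 breast epithelial markers, 5 were detected on all 6 arrays, among them ERBB2, the gene of HER2, and 7 were detected on 0, namely KRT7, KRT19, CLDN3, CLDN7, ESRP1, GRHL2 and GRB7. Because those absent signals go against the label, the samples are called by their treatment below. Of 9 leukocyte markers 7 were detected on 0 arrays, PTPRC, CSF1R and CD3E among them, and of 3 endothelial markers 3. The macrophage marker CD68 was detected on all 6. Of 6 fibroblast markers, COL1A1 and LUM were detected on all 6 arrays and 3, namely COL1A2, THY1 and PDGFRB, on 0.

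Of the 10 genes, 7 were tested and none of the 7 passed the threshold of 0.05 on the adjusted p-value. Over all genes 631 of 11582 passed (5.45%), 416 higher (3.59%) and 215 lower (1.86%) with inhibitor, so 0 of 7 is near the background. With the arrays centred on their medians instead, the split was 675 higher and 36 lower. The background itself rests on few arrays, since 18, 2 and 2 genes passed without inhibitor replicates 1, 2 and 3, against 265 and 244 without vehicle replicates 1 and 3. At an unadjusted p under 0.05, 1 of the 7 genes (STING1) and 24.4% of all genes passed. STING1 also passed the adjusted threshold when array weights or an intensity trend entered the limma fit, or when only probes with a detection p under 0.01 on all 6 arrays were kept. The 3 genes not tested were CGAS, TLR3 and IRF7, which lacked a probe detected on 3 or more arrays. Of the 15 probes, 7 were detected on all 6 arrays and 6 on none, so no member entered the test through a single group.

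**Figure D1:**
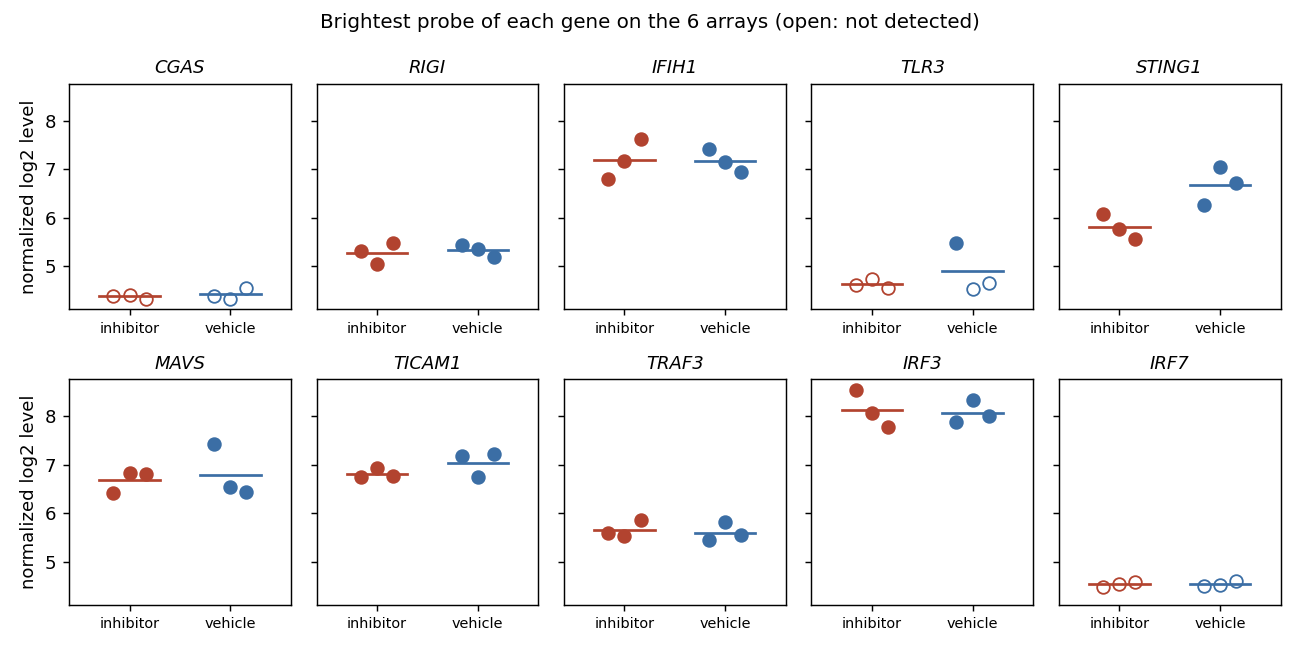
Normalized log2 level of the brightest probe of each gene on the 3 inhibitor arrays (left, red) and the 3 vehicle arrays (right, blue), with the group mean as a line and open points where the probe was not detected. STING1 is the gene whose groups lie apart, all CGAS and IRF7 points are open, and levels of different probes are not comparable with each other.

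The DNA sensor CGAS was not detected on any of the 6 arrays. Its single probe gave signal intensities of 94.2, 100.1 and 103.9 with inhibitor and of 84.3, 81.7 and 126.8 with vehicle, none of them past the detection limit. Being at background on both sides, CGAS has no fold change. TLR3 was likewise close to background. Its brighter probe had normalized log2 levels of 4.62, 4.73 and 4.55 with inhibitor, on 0 of which it was detected, and of 5.48, 4.53 and 4.64 with vehicle, where vehicle replicate 1 gave the only detection. That array is the one with the fewest detected probes, and the second TLR3 probe was detected on none.

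The RNA helicases were detected on all 6 arrays. RIGI, the sensor of RNA with a triphosphate end, had log2 levels of 5.31, 5.05 and 5.47 with inhibitor, against 5.43, 5.35 and 5.19 with vehicle. The groups overlapped. Its log2 fold change was -0.05 ± 0.17 (SE, n = 3 per group), with a 95% interval from -0.43 to 0.34 and a limma adjusted p = 0.894. IFIH1, also called MDA5, the sensor of long double-stranded RNA, had levels of 6.80, 7.17 and 7.62 with inhibitor, against 7.42, 7.14 and 6.93 with vehicle. Here the highest value of the 6 and the lowest were both inhibitor arrays. The log2 fold change of IFIH1 was 0.03 ± 0.23, with an interval from -0.49 to 0.56 (limma adjusted p = 0.945).

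The promoters of IFIH1 and TLR3 are shown because they hold GAAA, then any 2 bases, then GAAA again, which is the core of the interferon-stimulated response element that IRF proteins bind, and they are set beside those of BST2 and ISG15, interferon-induced genes that fell with inhibitor (values below). The windows are RefSeq's for GRCh38.p14, from 250 bases before to 50 bases after the gene's start, written 5′ to 3′ in the direction of the gene. Capitals mark matches on either strand, where TTTC, any 2 bases and TTTC is the same pattern read on the other strand, and matches that overlap form one run of capitals.
IFIH1, chr2:162318635-162318934, minus strand: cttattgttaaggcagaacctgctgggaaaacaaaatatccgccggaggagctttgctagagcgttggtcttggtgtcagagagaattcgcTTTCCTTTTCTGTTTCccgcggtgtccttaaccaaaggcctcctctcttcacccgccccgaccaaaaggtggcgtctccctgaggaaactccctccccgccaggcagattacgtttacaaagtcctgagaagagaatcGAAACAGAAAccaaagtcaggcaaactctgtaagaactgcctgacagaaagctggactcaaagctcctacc
TLR3, chr4:186068906-186069205, plus strand: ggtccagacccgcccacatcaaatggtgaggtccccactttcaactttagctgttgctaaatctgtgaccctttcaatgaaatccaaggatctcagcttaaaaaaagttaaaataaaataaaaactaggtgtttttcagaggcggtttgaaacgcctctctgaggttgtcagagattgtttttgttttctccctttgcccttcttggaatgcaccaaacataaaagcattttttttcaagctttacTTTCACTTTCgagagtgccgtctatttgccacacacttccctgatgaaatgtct
BST2, chr19:17405581-17405880, minus strand: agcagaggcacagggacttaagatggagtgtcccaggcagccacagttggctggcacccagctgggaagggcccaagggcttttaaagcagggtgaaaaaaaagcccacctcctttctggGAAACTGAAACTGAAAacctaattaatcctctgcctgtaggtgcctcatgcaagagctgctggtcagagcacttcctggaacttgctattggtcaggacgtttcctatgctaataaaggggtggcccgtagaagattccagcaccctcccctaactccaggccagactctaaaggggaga
ISG15, chr1:1013247-1013546, plus strand: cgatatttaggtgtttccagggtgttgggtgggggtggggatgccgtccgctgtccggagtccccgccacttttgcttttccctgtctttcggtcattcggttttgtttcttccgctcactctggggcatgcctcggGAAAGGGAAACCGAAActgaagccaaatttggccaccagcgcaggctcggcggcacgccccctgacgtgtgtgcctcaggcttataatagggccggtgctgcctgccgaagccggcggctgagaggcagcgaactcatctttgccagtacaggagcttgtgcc

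IFIH1 held 3 matches, of which 2 overlap, TLR3 held 1, and BST2 and ISG15 held 2 overlapping ones each. Of the members, 6 had a window in the table, and those of RIGI, MAVS, TICAM1 and TRAF3 held no match, which says only that these letters are not in those windows. Of all RefSeq windows, 1255 of 35116 (3.57%) held the pattern on either strand. For the genes induced by IRF3 or IRF7 listed below it was 12 of 17 windows (70.6%). Those with a match include CXCL10, IFIT1 and IFIT3, which did not pass the threshold. IFIH1 and ISG15 both held the pattern, with log2 fold changes of 0.03 and -0.87, and the difference between these genes was not tested. A match is a description of the sequence and does not show that a factor binds there.

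STING1 was the adaptor, and the member, with the largest difference between groups. It encodes the membrane protein of the endoplasmic reticulum that carries the cyclic dinucleotide signal to TBK1. Its log2 levels were 6.07, 5.77 and 5.55 with inhibitor, against 6.25, 7.04 and 6.72 with vehicle. Every inhibitor array lay below every vehicle array, but the gap between vehicle replicate 1 and inhibitor replicate 1 was smaller than the spread within either group. The log2 fold change was -0.87 ± 0.23 (SE, n = 3 per group), 0.546 times the vehicle level, with a 95% interval from -1.39 to -0.36. At a limma adjusted p = 0.0582 it missed the threshold. STING1 was the 1 of 7 tested members whose groups did not overlap, a feature shared by 31.5% of all genes tested.

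**Figure D2:**
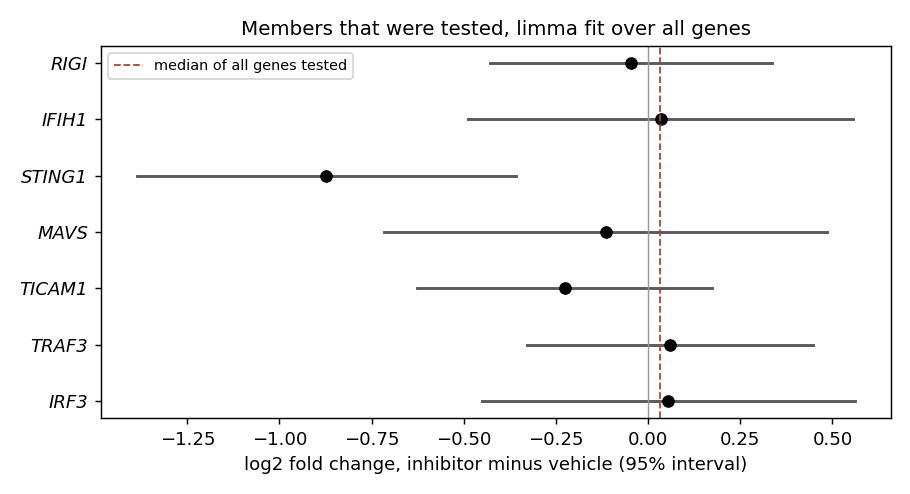
Log2 fold change, inhibitor minus vehicle, of the 7 members tested (points) with the 95% interval of the limma fit (lines), and the median of all genes tested (dashed, 0.03). The STING1 interval lies below 0, from -1.39 to -0.36, and the other 6 intervals include 0.

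The size of the STING1 difference followed the scaling. In the deposited signal intensities, before any normalization, the values were 148.3, 153.6 and 160.2 with inhibitor, against 129.3, 176.3 and 239.9 with vehicle. On that scale the groups overlapped, since the dim array of vehicle replicate 1 was the lowest of the 6. With the deposited processed values the levels were 7.51, 7.41 and 7.35 with inhibitor, against 7.57, 7.92 and 7.76 with vehicle. These did not overlap, yet they differed by only -0.33 ± 0.10 (SE), on a log2-like scale whose transformation is unknown. Centred on array medians, where the median of all genes was itself at 0.24, STING1 had -0.61 ± 0.30 and vehicle replicate 1 lay among the inhibitor arrays. Every other tested member had the same SE of 0.30 there, so this SE does not measure the spread of STING1 alone.

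**Figure D3:**
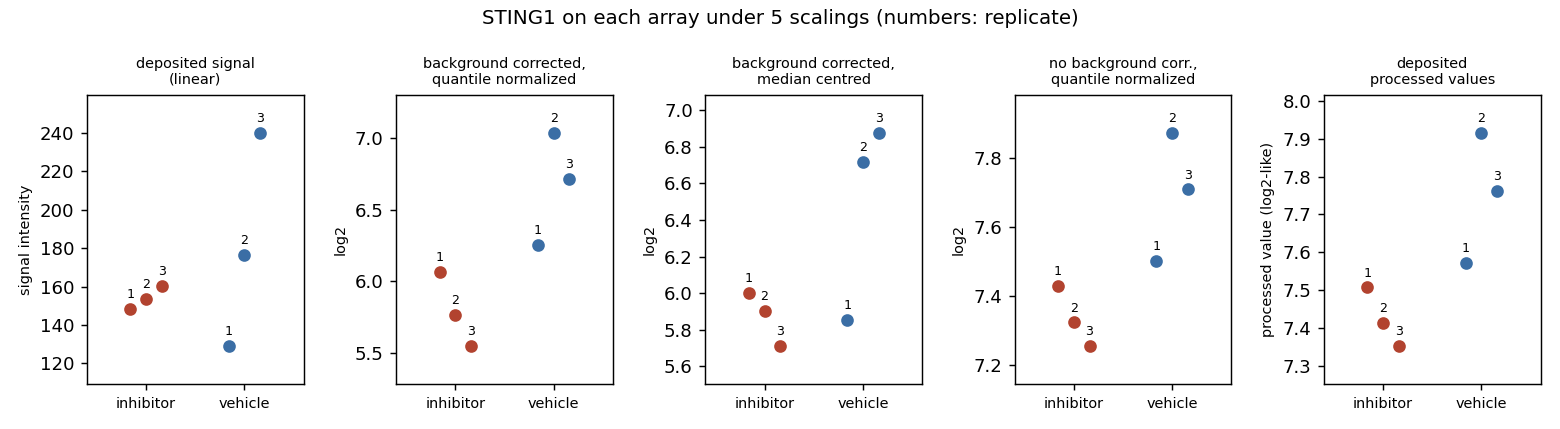
STING1 on each array under 5 scalings of the same probe, with inhibitor arrays left (red) and vehicle arrays right (blue), and replicate numbers beside the points. Vehicle replicate 1 lies below the inhibitor arrays in the deposited signal and among them after median centring, and the groups lie apart in the other 3 panels.

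Across 16 alternative settings STING1 kept its direction in 16 and passed the threshold in 4. Without vehicle replicate 1 its log2 fold change was -1.10 (limma adjusted p = 0.0448), and without vehicle replicate 2, the array with the highest STING1 level, it was -0.70 (adjusted p = 0.113). Array weights gave -0.96 (adjusted p = 0.0220). The summed linear levels of the leukocyte list ran from 434.2 to 464.3 on inhibitor arrays and from 362.1 to 376.6 on vehicle arrays, where CD68 was detected on 6 arrays, CD14 on 5 and the other 7 markers on 0. For the breast epithelial list the sums ran from 798.6 to 983.9 on inhibitor arrays and from 985.2 to 996.8 on vehicle arrays, and for the fibroblast list from 651.9 to 723.9 on inhibitor arrays and from 512.8 to 550.1 on vehicle arrays. The 5 housekeeping genes summed to between 25810 and 26258 on inhibitor arrays and between 27901 and 36580 on vehicle arrays. The part of the leukocyte, epithelial, fibroblast and housekeeping levels in the STING1 result was not tested.

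**Figure D4:**
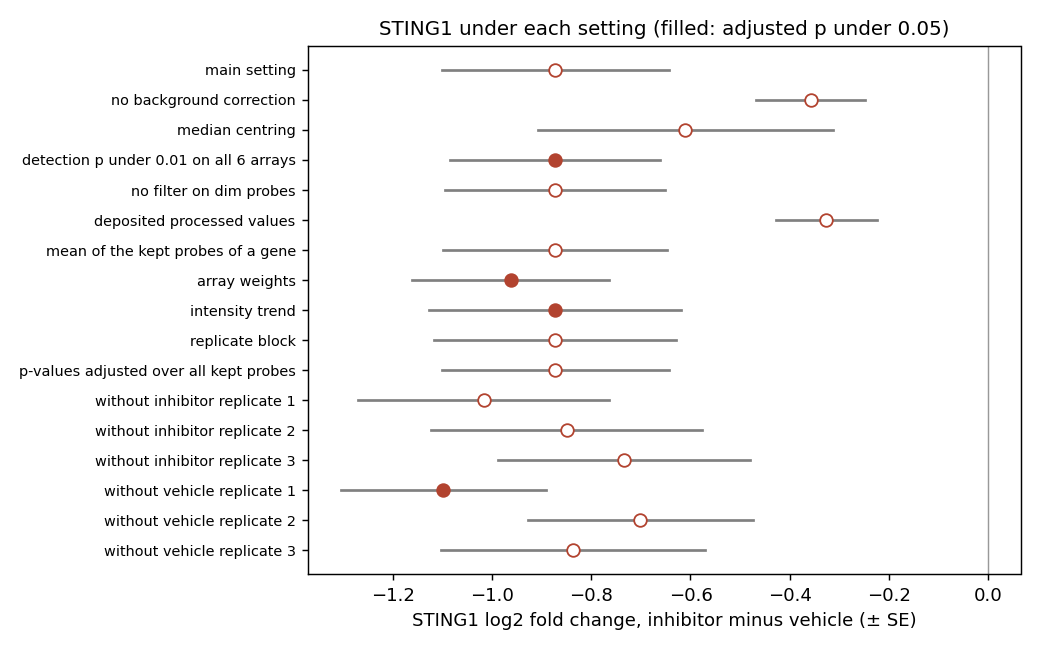
Log2 fold change of STING1, inhibitor minus vehicle, with its SE, under the setting used in the text (top) and 16 alternatives; filled points passed the adjusted threshold. All values are below 0, from -1.10 to -0.33, and 4 points are filled.

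The genes whose levels over the 6 arrays were most like those of STING1 were ZNF77, ACSS1, HDDC2, PLEKHF1 and CITED1, with Pearson r of 0.993, 0.991, 0.990, 0.989 and 0.987. These were the 5 highest values among 11581 other genes, the points are the same 6 arrays for every gene, and the r is a description of likeness only. CITED1, a transcriptional co-regulator, was the one of the 5 that passed the threshold, with log2 levels of 9.00, 8.43 and 8.17 with inhibitor, against 9.63, 10.56 and 10.31 with vehicle (log2 fold change -1.63, limma adjusted p = 0.0235). All 5 genes put the 6 arrays in the same order as STING1 did, as a choice by r near 1 favours.

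The other adaptors showed no difference past the threshold. MAVS, the mitochondrial adaptor of RIGI and IFIH1, had log2 levels of 6.41, 6.83 and 6.80 with inhibitor, against 7.43, 6.53 and 6.44 with vehicle. Vehicle replicate 1 was the highest of the 6 and the other vehicle arrays lay among the inhibitor arrays. The log2 fold change of MAVS was -0.12 ± 0.27 (SE), the widest interval of the 7 genes at -0.72 to 0.49 (limma adjusted p = 0.833), and it was 0.20 without vehicle replicate 1. The other MAVS probe reached detection on 1 inhibitor array and 1 vehicle array.

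TICAM1, the adaptor of TLR3, had log2 levels of 6.75, 6.94 and 6.77 with inhibitor, against 7.18, 6.75 and 7.22 with vehicle. Vehicle replicate 2 was the lowest of the 6, so the groups overlapped, and the log2 fold change was -0.23 ± 0.18 (interval -0.63 to 0.17, limma adjusted p = 0.475). It was below 0 in 15 of 16 alternative settings. The exception was median centring, where TICAM1 was at 0.078 and the median of all genes at 0.24. TRAF3, the ubiquitin ligase that serves the adaptors, had 5.59, 5.54 and 5.86 with inhibitor, against 5.44, 5.82 and 5.55 with vehicle. Its log2 fold change was 0.06 ± 0.17, with an interval from -0.33 to 0.45 (limma adjusted p = 0.869).

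The transcription factor IRF3, which is made in most cells without a stimulus, was detected on all 6 arrays, while IRF7, which interferon induces in most cells, was detected on none with any of its 3 probes. IRF3 had log2 levels of 8.55, 8.08 and 7.78 with inhibitor, against 7.88, 8.34 and 8.02 with vehicle. The highest and the lowest value were both inhibitor arrays. The log2 fold change of IRF3 was 0.05 ± 0.22, with an interval from -0.45 to 0.56 (limma adjusted p = 0.908). The brightest IRF7 probe had levels of 4.47, 4.54 and 4.59 with inhibitor and of 4.51, 4.51 and 4.61 with vehicle, at background throughout, so IRF7 has no fold change. The arrays cannot tell whether either group had less IRF7 than the other.

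Among the 7 tested members the log2 fold changes ran from -0.87 to 0.06, with a median of -0.05, against a median of 0.03 over all genes tested. The signs were mixed, 3 above 0 and 4 below. For RIGI, IFIH1, TRAF3 and IRF3 the size was at most 0.06, and the sign of each turned with at least 1 array left out. Their intervals leave room for differences of up to about 0.34 to 0.56 above 0 and 0.33 to 0.49 below, so equal levels were not shown.

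The rest of the pathway was read from 8 lists of 135 genes by role, of which 127 are named on the array and 98 were tested. Of these 98, 3 rose with inhibitor, 3 fell and 92 did not pass, close to the 5.45% of all genes. Of the 3 that rose, IFNE was detected on inhibitor arrays only with the probe tested, so it passed the filter through the group where it was high. Of 5 tested genes, TBK1, its IKK relatives and the regulatory IKK subunit IKBKG, 0 passed. The smallest p-values were those of IKBKB (0.47 ± 0.17, limma adjusted p = 0.136) and CHUK (0.35 ± 0.16, adjusted p = 0.218). A second probe of IKBKB had 0.05 ± 0.26. TBK1 itself had log2 levels of 8.97, 9.33 and 9.31 with inhibitor, against 9.11, 8.95 and 9.23 with vehicle, and a log2 fold change of 0.10 ± 0.17 (limma adjusted p = 0.753). IKBKE was detected on 2 arrays of each group and had -0.01 ± 0.28 (adjusted p = 0.980).

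Among 21 other nucleic acid sensors with a probe, 8 reached detection on every one of the 6 arrays and 9 on none. The test took in 10 of the 21, against 57.8% of all genes on the array, and 0 passed. The helicase DHX58, the DNA sensor ZBP1 and the Toll-like receptors TLR2, TLR4, TLR7, TLR8 and TLR9 were detected on 0 arrays. The smallest p-value was that of XRCC5, the Ku80 subunit of the DNA end-binding complex, with levels of 9.32, 9.39 and 9.60 with inhibitor, against 10.66, 10.05 and 10.01 with vehicle. Its log2 fold change was -0.81 ± 0.21 (limma adjusted p = 0.0545), at the same edge of the threshold as STING1. OAS1, which makes oligoadenylate when it binds double-stranded RNA, had -0.39 ± 0.19 (adjusted p = 0.243) with detection on 1 inhibitor array and 3 vehicle arrays.

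Of 17 tested adaptors and ubiquitin ligases other than the members 0 passed. The smallest p-values were those of PQBP1, a cofactor of CGAS (0.53 ± 0.15, limma adjusted p = 0.0768), and the TBK1 adaptor TBKBP1 (-0.63 ± 0.19, with an adjusted p = 0.0875 and no detection on 1 of 3 inhibitor arrays). A dimmer PQBP1 probe went the other way, at -0.75 ± 0.34, with detection on 1 inhibitor array and 2 vehicle arrays. A second probe of DDX3X, an RNA helicase that binds TBK1, had 0.95 ± 0.21 (limma adjusted p = 0.0419 over all kept probes), against 0.14 for the probe that stood for the gene. MYD88, the adaptor of most Toll-like receptors, was detected on 0 arrays. Of 23 tested brakes on the pathway 0 passed. A second probe of BANF1, a DNA-binding protein that keeps CGAS off nuclear DNA, had -0.92 ± 0.17 (limma adjusted p = 0.0305 over all kept probes), against -0.23 for the probe that stood for the gene. TRIM21, a ubiquitin ligase and antibody receptor of the cytosol, had -0.61 ± 0.16 (adjusted p = 0.0590), and the autophagy kinase ULK1 had 0.48 ± 0.15 (adjusted p = 0.0895). TREX1, the exonuclease that degrades cytosolic DNA, was detected on 0 arrays.

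Among 13 genes of STING traffic and cyclic dinucleotide transport 1 rose. It was NPC1, the lysosomal cholesterol transporter, with log2 levels of 8.42, 8.59 and 8.76 with inhibitor, against 7.63, 7.93 and 7.81 with vehicle. The groups lay apart, and the log2 fold change was 0.80 ± 0.17 (limma adjusted p = 0.0316). NPC1 passed in 10 of 16 alternative settings, and of the 6 that left out an array it passed in 1, without vehicle replicate 2. Of the other IRF factors, 7 were tested and 0 passed. IRF8, a factor of myeloid and B cells, had levels of 7.72, 7.71 and 7.84 with inhibitor, against 8.24, 8.41 and 8.34 with vehicle, which did not overlap (log2 fold change -0.57 ± 0.15, adjusted p = 0.0555). IRF9, a DNA-binding factor of interferon signalling, had -0.01 ± 0.17 (adjusted p = 0.971), IRF2BP2, a co-repressor that binds IRF2, had 0.37 ± 0.17 (adjusted p = 0.230), and IRF5 was detected on 0 arrays.

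Of 10 tested interferons, receptors and JAK-STAT genes, IFNAR1 and IFNE were past the threshold, both higher, and 0 fell. IFNAR1, a subunit of the receptor that all type I interferons use, had log2 levels of 7.58, 7.45 and 7.89 with inhibitor, against 6.78, 6.34 and 6.97 with vehicle. No inhibitor array was as low as a vehicle array, and the log2 fold change was 0.95 ± 0.21 (limma adjusted p = 0.0351). IFNAR2, the other subunit of that receptor, was lower without passing, at -0.66 ± 0.22 (limma adjusted p = 0.104), and its groups overlapped. A dimmer IFNAR2 probe had 0.27 ± 0.24. IFNE, an interferon of the female reproductive tract, had a probe detected on 3 inhibitor arrays and 0 vehicle arrays, with a difference of at least 1.15-fold (adjusted p = 0.0351). As the filter admitted this probe through inhibitor arrays alone, it had to lie higher with inhibitor, and its call supports nothing further. Another IFNE probe, not tested, was detected on 1 vehicle array. For the bound, each vehicle array counted at the dimmest level it detected or, where higher, at the level of IFNE. IFNAR1 passed in 9 of 16 alternative settings and IFNE in 4 of 12, and of the 6 that left out an array only that without vehicle replicate 3 kept IFNAR1 past the threshold.

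IFNB1, the interferon gene that IRF3 activates directly, was detected on all 6 arrays, with log2 levels of 6.73, 6.91 and 7.20 with inhibitor, against 7.28, 6.66 and 6.79 with vehicle. The groups overlapped, and the log2 fold change was 0.04 ± 0.21 (interval -0.43 to 0.51, limma adjusted p = 0.932). Of 14 tested genes induced by IRF3 or IRF7, IFNB1 included, 3 fell, 0 rose and 11 did not pass, against 1.86% of all genes that fell and 3.59% that rose. The median log2 fold change of the 14 was -0.15, and 6 lay above 0. CXCL10, a chemokine that draws T cells, had levels of 8.54, 8.64 and 8.82 with inhibitor, against 8.35, 7.82 and 7.86 with vehicle (0.66 ± 0.19, limma adjusted p = 0.0748). IFIT2, an inhibitor of viral translation, had 0.50 ± 0.21 (adjusted p = 0.181), and neither gene had overlapping groups. Other genes of the list were lower without passing. IFI44 had -0.67 ± 0.25 (limma adjusted p = 0.149) and IFIT1 had -0.37 ± 0.15 (adjusted p = 0.178), both with groups apart. IFIT3 had -0.48 ± 0.21 (adjusted p = 0.193) with overlapping groups, and its other kept probes had 0.40 and -0.89. BST2, which tethers budding viruses, had levels of 7.69, 7.65 and 7.58 with inhibitor, against 8.67, 8.69 and 8.74 with vehicle, and fell by 1.06 on the log2 scale (SE 0.14, adjusted p = 0.0150).

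The ubiquitin-like ISG15 had log2 levels of 8.65, 8.16 and 8.40 with inhibitor, against 9.23, 9.36 and 9.24 with vehicle (log2 fold change -0.87 ± 0.17, limma adjusted p = 0.0298). OASL, an antiviral relative of OAS1 that aids RIGI, had 7.76, 8.19 and 8.05 with inhibitor, against 8.79, 8.97 and 8.66 with vehicle (-0.81 ± 0.17, adjusted p = 0.0345). A dimmer OASL probe was lower without passing, at -0.51 ± 0.19 (limma adjusted p = 0.150 over all kept probes). None of the 3 genes BST2, ISG15 and OASL had overlapping groups. With median centring, which put the median gene at 0.24, each lost its call. The SE also rose, to 0.30 for each, from 0.14 for BST2 and 0.17 for ISG15 and OASL. NPC1, IFNE, IFNAR1 and the tested members had that same SE under this setting, so it does not measure each gene's own spread. The parts of the shift and of the larger SE in the lost calls were not tested. The log2 fold changes were then -0.79 for BST2 (adjusted p = 0.0914), -0.64 for ISG15 (adjusted p = 0.200) and -0.54 for OASL (adjusted p = 0.301). With 1 array left out, BST2 passed in 3 of 6 cases, each of them without a vehicle array, and ISG15 and OASL in 0 of 6, with log2 fold changes between -1.09 and -0.69 for the 3 genes.

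**Figure D5:**
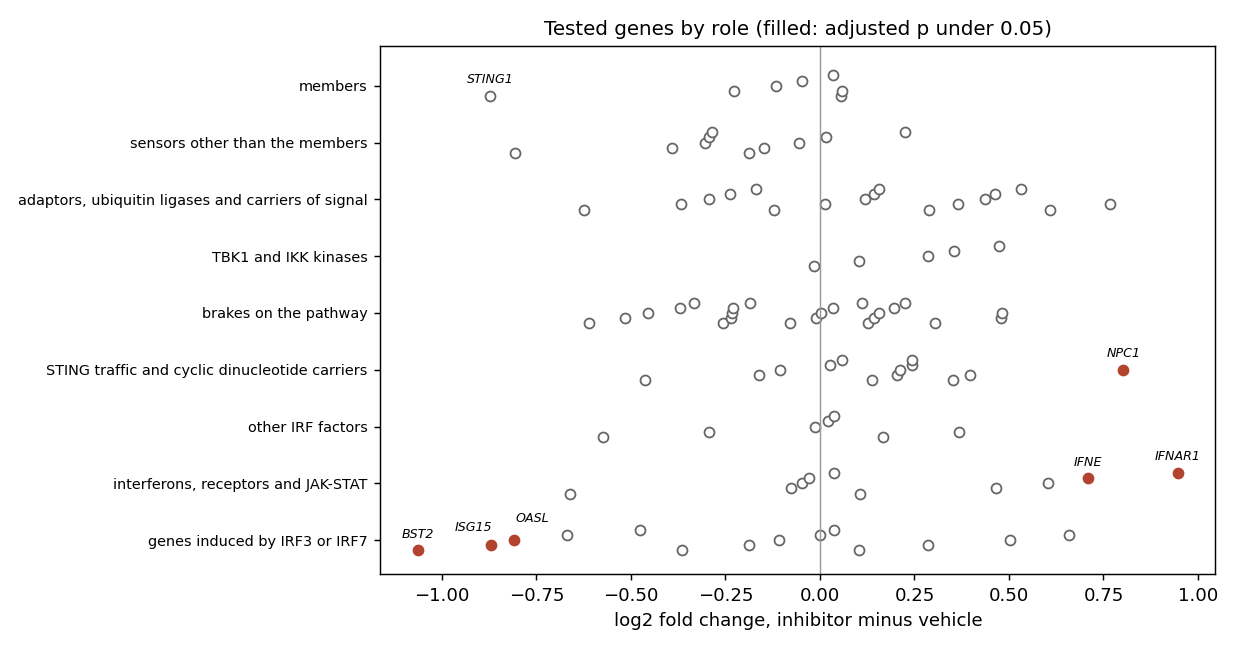
Log2 fold change, inhibitor minus vehicle, of the tested members (top row) and of the tested genes of the 8 lists by role, each point 1 gene and filled where its adjusted p was under 0.05. Filled points are NPC1, IFNE and IFNAR1 above 0 and BST2, ISG15 and OASL below 0, and none is in the row of members.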

How the data were processed

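Per the file headers, the deposited table of the series holds, for every probe and array, a linear signal intensity with its detection p-value, without normalization. The deposited processed values are on a log2-like scale, with a transformation not given in the sources used here; the submitters' processing notes name lumi. Intensities were background-corrected and quantile-normalized with limma 3.58.1 in R 4.3.3 (neqc, negative controls inferred from the detection p-values, offset 16) and put on the log2 scale. The 19958 probes kept had a detection p under 0.05 on 3 or more of the 6 arrays, and the kept probe with the highest mean stood for a gene (11582 genes). Symbols came from the platform annotation, updated through RefSeq (30112 probes with 1 symbol, 8 with several, 17201 with none). Inhibitor and vehicle were compared with lmFit and eBayes over all kept probes, without covariates, and p-values were adjusted by Benjamini-Hochberg over genes. Intervals are limma's moderated 95% ones, and the number of arrays limits the precision. The fit was also run on simulated data with independent noise on each array, a run that cannot speak to array or culture effects in these samples. No batch is given in the labels or headers. Genes named besides the members are those of each list past the threshold, or the 2 with the smallest p-value. TBK1, IKBKE, IRF9, IFNB1 and the 5 genes most like STING1 were named too. CXCL10, IFIT2, IFI44, IFIT1, IFIT3, IFNAR2, BANF1, DDX3X, undetected genes and markers were named after their values were seen. The members, lists and named genes were chosen with earlier results of these data known. Alternatives were the background correction, scaling, filter, source of values, probe choice, array weights, intensity trend, replicate block, adjustment and each array left out.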

Additional observations from a re-analysis of the deposited data

How the results depend on the processing

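Over all genes 631 passed, against 1356 without background correction, 1355 with the deposited processed values, 970 with array weights, 1192 with an intensity trend and 40 with the replicate number as a block, and 2 to 422 with each array left out. Of the members 0 passed, against 1 (STING1) with array weights, with an intensity trend and with a detection p under 0.01 on all 6 arrays, and 0 to 1 with each array left out. Of the other pathway genes 6 passed, against 16 without background correction, 12 with the stricter detection filter, 15 with the deposited processed values, 11 with array weights, 15 with an intensity trend and 0 with the replicate block, and 0 to 2 with each array left out. The block changed no member's call (STING1 adjusted p = 0.106 in limma). The samples share only a number: inhibitor replicates 1, 2 and 3 correlated best with vehicle replicates 2, 1 and 3 (deviations of same-numbered samples, -0.14, 0.02 and 0.12).

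Signs turned with an array left out for 5 of the 7 tested members, namely RIGI, IFIH1, MAVS, TRAF3 and IRF3, none of which passed in any setting, and the cause was not tested. Centring on array medians put the median gene at 0.24, against 0.03 in the main fit. The size of the move differed between genes, from 0.71 to 0.73 for IFNE and from -0.12 to 0.20 for MAVS. That setting gave 0.10 for RIGI and 0.078 for TICAM1, and array weights gave 0.093 for MAVS. With each array left out, the log2 fold changes ran from -0.14 to 0.066 for RIGI, from -0.18 to 0.23 for IFIH1, from -0.30 to 0.20 for MAVS, from -0.039 to 0.17 for TRAF3 and from -0.15 to 0.24 for IRF3. Over the alternatives STING1 stayed between -1.10 and -0.33 and below 0. Dim signal limits CGAS, TLR3 and IRF7, which have no fold change, and the number of arrays limits the rest.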
